A study of Mus musculus with 28 samples.

Results

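The maturation of the mouse ovary between 1 and 6 months of age was examined on the ad libitum (AL) diet. The members were the arrays labelled as AL ovary at either age, and they were 4 of the 28 arrays of a series on ageing gonads. No measured value was used to choose them. These mice were C57BL/6. The 1-month group was AMC196 and AMC244, although the age recorded for the animal AMC196 itself is 17 days. The 6-month group was AMC52 and AMC137. Each array was hybridized with RNA of the entire ovary of 1 animal, labelled with Cy3, and with a reference pool of RNA from mouse cell lines, labelled with Cy5. The series also holds ovaries at 16 and 24 months, ovaries on a calorie restricted (CR) diet from 6 months on, and testes of the same ages and diets. Groups are named by these ages. The age recorded was 15 months for AMC131 of the AL ovaries of 16 months and 23 months for AMC174 of those of 24 months. It was 22 months for AMC207 and AMC208, the CR testes of 24 months. The array design was version 2.1 for AMC196, AMC244 and AMC52, and version 2.2 for AMC137. Expression is given as the log2 ratio of ovary to reference after the adjustment for array version, and a change is the mean at 6 months minus the mean at 1 month. A gene was called when limma gave an FDR of at most 0.1 and the change was at least 1.5-fold. The error was pooled over the 14 ovary arrays, and p-values measure the spread between these arrays only. In 6 of the 7 ovary groups the animals were also on different array versions. The spread thus holds differences between animals and what the adjustment left of those between versions.

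The ovary before puberty holds a store of resting follicles and a smaller number of growing ones, each with an oocyte surrounded by granulosa cells and, later in growth, by theca cells. With puberty the surge of luteinizing hormone starts to trigger ovulation in every oestrous cycle. The wall of the ovulated follicle then turns into a corpus luteum, which makes progesterone from cholesterol and regresses again unless the animal becomes pregnant. The store of oocytes shrinks throughout life and is not refilled.

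The labelled tissue was checked against genes that define ovarian cells. Foxl2, a transcription factor of granulosa cells, had a log2 ratio to the reference of 5.05 in AMC196, 5.12 in AMC244, 4.91 in AMC52 and 4.65 in AMC137. For Gdf9, a growth factor of oocytes, the ratio was 6.38 in AMC196, 6.16 in AMC244 and 5.24 in AMC52, and the spot of AMC137 was left out. Zp3, a protein of the zona pellucida, had ratios of 2.67 in AMC196, 2.25 in AMC244, 1.84 in AMC52 and 1.43 in AMC137. All of these were above the reference on every array with a value, as were Amh and Fshr of granulosa cells, Cyp17a1 of theca cells, and Lhcgr and Akr1c18, which mark luteal cells. None of Foxl2, Gdf9, Zp3, Amh and Fshr was called between the ages. Their changes were -0.31 for Foxl2 (FDR 0.603), -1.03 for Gdf9 without AMC137 (FDR 0.736), -0.83 for Zp3 (FDR 0.152), -0.10 for Amh (FDR 0.807) and -0.38 for Fshr (FDR 0.236). Single arrays moved these values, since Foxl2 gave -0.56 without AMC52 and -0.18 without AMC137, Amh -0.22 without AMC52 and -0.05 without AMC244, and Fshr -0.20 without AMC52. Gdf9 gave -1.97 in the Cy3 channel alone. Another probe of Foxl2 gave a change of the opposite sign, 0.13. Fewer cells of a type and less RNA in each cell cannot be told apart in RNA of whole ovary.

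Among called genes with a name, the 12 largest rises between 1 and 6 months included Akr1c18 and Onecut2 of the corpus luteum list. Star of steroid synthesis was also among them. Obox1, Nlrp4b and Btg4, of a list of oocyte genes, were among the 12 largest falls of called genes with a name. These lists were chosen with earlier results of these data known, so they are not independent of the values. Of 35305 genes and unnamed probes tested, 157 were called (0.445%). The shift for array version was estimated from the same arrays, which the 7 residual degrees of freedom of the fit do not count, and with the version as a term of the fit 24 were called. Of the 157, 57 rose (0.161%) and 100 fell (0.283%), and the median change over everything tested was 0.00. A gene name was known for 114 of the called, and 43 were unnamed probes. The rises reached larger sizes than the falls, with folds up to 31.5 among risen genes and up to 3.66 among fallen ones. The median change was 1.16 for the risen and -0.93 for the fallen. More than 2-fold changes were found in 33 risen and 42 fallen genes. Of the called genes 156 were measured on all 4 arrays, and in each of these both ovaries of 6 months lay on the same side of both ovaries of 1 month. Among the 35116 genes measured on all 4 arrays, 8108 (23.1%) were higher in both ovaries of 6 months than in both of 1 month and 7462 (21.2%) were lower. Counts for gene lists below are to be read beside these shares and the 0.161% risen and 0.283% fallen.

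**Figure D1:**
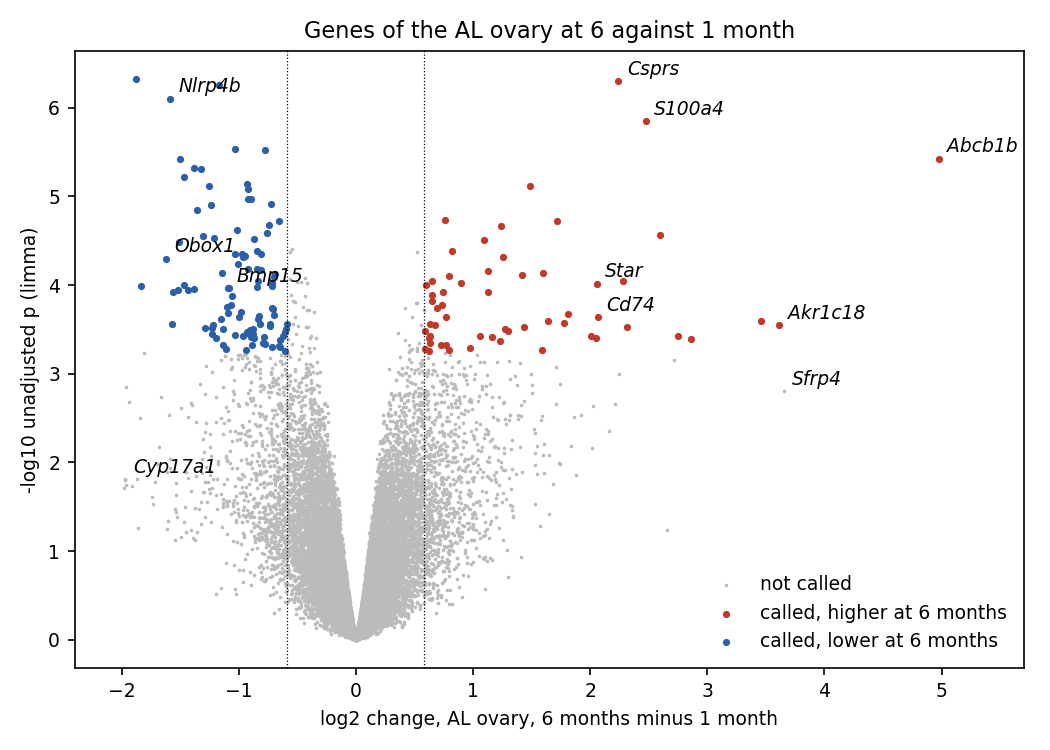
Each point is a gene or an unnamed probe. The x axis is the log2 change from 1 to 6 months in AL ovary, the y axis is minus the log10 of the unadjusted p from limma, and dotted lines mark 1.5-fold. Red points are the 57 called genes higher at 6 months, blue points the 100 called genes lower at 6 months, and grey points were not called. The red points reach a log2 change of 4.98 and the blue points -1.87.

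The called genes of the corpus luteum list were led by Akr1c18, the enzyme that inactivates progesterone as the corpus luteum regresses. Its log2 ratio was 1.00 in AMC196, 0.54 in AMC244, 4.50 in AMC52 and 4.27 in AMC137. Both ovaries of 6 months stood far above both of 1 month, with no overlap. The change was 3.62 ± 0.64 (SE), or 12.3-fold, at an FDR of 0.0792, and a second probe of the gene gave 3.40. Of the fits that left out 1 of the 4 arrays, only that without AMC137 called Akr1c18, and its FDR was 0.281 without AMC196, 0.3 without AMC244 and 0.217 without AMC52. Onecut2, a transcription factor, was measured at -0.60 in AMC196, -0.48 in AMC244, 2.43 in AMC52 and 1.05 in AMC137. It rose by 2.28 ± 0.35 (FDR 0.0499), AMC52 was the higher of the 6-month ovaries, and the change was 1.55 without AMC52 and 2.97 without AMC137. The ratio of Timp1, an inhibitor of the proteases that remodel matrix, was -1.06 in AMC196, -0.90 in AMC244, 1.47 in AMC52 and 0.20 in AMC137. Timp1 rose by 1.81 ± 0.31 (FDR 0.0708), again with AMC52 highest, and by 1.10 without AMC52 and 2.45 without AMC137.

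Of the 17 measured genes of the corpus luteum list, 3 rose and 0 fell, and the median change was 0.41. Over everything tested 0.161% rose and 0.283% fell. The change was negative in 6 of them. Those lower in both ovaries of 6 months, named after their values were seen, were Rxfp1, the receptor of relaxin, with -1.24 ± 0.41 (FDR 0.266), Vegfa, a growth factor of vessels, with -0.45 (FDR 0.663), and Hsd17b7, an enzyme of oestradiol and cholesterol synthesis, with -0.29 (FDR 0.78). Sfrp4, a secreted inhibitor of Wnt signalling that is made in luteal cells, had ratios of 0.42 in AMC196, 0.56 in AMC244, 4.51 in AMC52 and 3.78 in AMC137. Its change of 3.65 ± 0.83 was as large as that of Akr1c18 but did not pass the test (FDR 0.129). It was called in the Cy3 channel alone (FDR 0.0609) and with the deposited values (FDR 0.0988). The ANOVA described for the study also called it when its error variance was taken as known. Within version 2.1, where AMC52 is the only ovary of 6 months, its change was 4.02. Sfrp4 also differed between the animals of 16 months and between the CR animals of 24 months, and these enter the pooled error. The receptors of the list were not called. Their changes were 0.79 ± 0.25 for the prolactin receptor Prlr (FDR 0.243), 0.76 ± 0.50 for Lhcgr, the receptor of luteinizing hormone (FDR 0.629), and 0.41 ± 0.11 for Ptgfr, the prostaglandin receptor that starts luteal regression (FDR 0.182). All 3 were higher in both ovaries of 6 months than in both of 1 month. Prlr was called in the Cy3 channel alone, with 1.80 (FDR 0.0838). The change of Ptgfr was 0.82 with the signals as processed by the scanner software and 0.21 without AMC52, and that of Lhcgr 1.34 without AMC52 and 0.40 without AMC137.

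Steroid synthesis begins with the transport of cholesterol into mitochondria by Star. The log2 ratio of Star was 2.64 in AMC196, 2.12 in AMC244, 4.78 in AMC52 and 4.09 in AMC137. The gene rose by 2.06 ± 0.32 (FDR 0.0499), the ages did not overlap, and AMC52 was the highest of the 4. Cyp11a1, which converts this cholesterol to pregnenolone, was at 2.86 in AMC196, 2.80 in AMC244, 4.21 in AMC52 and 4.25 in AMC137. Its change of 1.40 ± 0.40 did not pass the test (FDR 0.212). Cyp11a1 was called with the signals as processed by the scanner software (1.03, FDR 0.092), with the deposited values (1.03, FDR 0.068) and in the Cy3 channel alone (3.22, FDR 0.0993). For Hsd3b1, which makes progesterone, the values of the ages overlapped, and the change was -0.07 ± 0.14 (FDR 0.91). Other probes of Hsd3b1 gave 0.25 and 0.41, the Cy3 channel alone gave 1.35, and the change was 0.07 without AMC52 and -0.16 without AMC137. Of the 19 measured genes of steroid synthesis and cholesterol uptake, 1 rose, 0 fell and the median change was 0.32. None of the 16 genes of cholesterol synthesis was called, with a median of 0.18. Among them Dhcr7 had a change of 1.34 ± 0.54 (FDR 0.366), a value that was 0.23 without AMC52 and 2.23 without AMC137, when it was called, and Sc5d of 0.33 ± 0.14 (FDR 0.388).

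The response of the follicle to the ovulatory surge was represented by 19 measured genes, of which 3 rose and 0 fell, with a median of 0.18. The risen genes were Star, Cebpb and Ptger2. Cebpb, a transcription factor that granulosa cells need for luteinization, had ratios of -0.46 in AMC196, -0.29 in AMC244, 0.55 in AMC52 and 0.24 in AMC137 and rose by 0.77 ± 0.13 (FDR 0.0728). Ptger2, the receptor through which prostaglandin E acts on the cumulus, had ratios of 2.01 in AMC196, 2.00 in AMC244, 2.79 in AMC52 and 2.58 in AMC137 and rose by 0.68 ± 0.12 (FDR 0.0792). Neither overlapped between the ages. Ptgs2, the enzyme of prostaglandin synthesis in the ovulating follicle, was below the reference on all 4 arrays. Its change was 0.23 ± 0.30 (FDR 0.853). This turned to -0.03 with the signals as processed by the scanner software and to -0.04 in the Cy3 channel alone. It was 0.54 without AMC52 and 0.10 without AMC137.

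With the array version as a term of the fit in place of the shift, the changes were 3.39 for Akr1c18, 2.38 for Onecut2, 1.90 for Timp1, 2.06 for Star, 0.77 for Cebpb and 0.66 for Ptger2. None of these 6 genes was then called. Within version 2.1, where AMC52 is the only ovary of 6 months, they were 3.73, 2.97, 2.45, 2.40, 0.92 and 0.79, again with none called. When 1 of the 4 arrays was left out, Star, Cebpb and Ptger2 were called only without AMC137, and Onecut2 and Timp1 only without AMC52 or AMC137. The median of the corpus luteum list was 0.43 with the version term and 0.57 within version 2.1, and that of steroid synthesis and cholesterol uptake 0.34 and 0.37. The processed signals gave 0.68 and 0.36 for these lists, the deposited values 0.68 and 0.43, and the Cy3 channel alone 0.37 and 0.62. Akr1c18 and Onecut2 were called in each of these scalings. Cebpb was called in none of them (FDR 0.133, 0.106 and 0.113 in this order). Ptger2 was called only with the deposited values (FDR 0.0918, against 0.119 and 0.215). In the Cy3 channel alone Timp1 (FDR 0.171) and Star (FDR 0.124) were not called.

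The largest rise of a called gene was that of Abcb1b, an efflux pump of the P-glycoprotein family that exports drugs and steroids. Its log2 ratio was -2.25 in AMC196, -2.24 in AMC244, 3.30 in AMC52 and 2.17 in AMC137. The gene was thus below the reference in the ovaries of 1 month, with nearly equal values, and above it in both ovaries of 6 months. The change was 4.98 ± 0.51, or 31.5-fold (FDR 0.0147). It was 4.97 without AMC196, when Abcb1b was not called, 4.18 without AMC52 and 5.54 without AMC137. Abcb1b passed with the version term (4.92, FDR 0.0615). Within version 2.1, where AMC52 is the only ovary of 6 months, the change was 5.54. A second probe of the gene gave only 0.75.

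S100a4, a calcium-binding protein of motile and stromal cells, was far below the reference on each array, at -5.53 in AMC196, -5.92 in AMC244, -3.19 in AMC52 and -3.31 in AMC137. It rose by 2.47 ± 0.23 (FDR 0.01) and was also called with the version term (2.46, FDR 0.0504). It was not called within version 2.1, where the change was 2.54. Nor was it called with a prior variance that follows a trend over the mean log2 ratio, not over signal (FDR 0.889). S100a6, of the same protein family, was at -2.46 in AMC196, -3.43 in AMC244, 0.52 in AMC52 and -0.92 in AMC137. Its rise of 2.75 ± 0.51 (FDR 0.0834) was 1.63 without AMC52 and 3.46 without AMC137. Ccn5, a secreted matricellular protein, was at -1.97 in AMC196, -1.87 in AMC244, 1.91 in AMC52 and -0.03 in AMC137. Ccn5 rose by 2.86 ± 0.53 (FDR 0.0851), with 1.83 without AMC52 and 3.83 without AMC137. In all of these the ages did not overlap.

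Also among the 12 largest rises of called genes with a name were Tmem178, Cyp4f14, Csprs and Cdkn2b. Tmem178 is a membrane protein, and Cyp4f14 a cytochrome P450 that hydroxylates fatty acids. Cdkn2b is an inhibitor of the kinases that start the cell cycle. Csprs, whose gene lies in a repeated cluster, was at -2.53 in AMC196, -2.48 in AMC244, -0.24 in AMC52 and -0.29 in AMC137. Csprs rose by 2.24 ± 0.18 (FDR 0.0065), while the smallest change of another probe with this name was 0.08. The rises were 2.60 ± 0.34 for Tmem178 (FDR 0.0327), 2.32 ± 0.41 for Cyp4f14 (FDR 0.0795) and 2.01 ± 0.37 for Cdkn2b (FDR 0.0834). Cyp4f14 and Tmem178 were above the reference at both ages. With the version term the changes of S100a6, Ccn5, Tmem178, Cyp4f14, Csprs and Cdkn2b were 2.82, 3.06, 2.54, 2.25, 2.23 and 1.96, and only Csprs was called, while within version 2.1 they were 3.46, 3.83, 2.92, 2.57, 2.27 and 2.46, and only Ccn5 was called. When 1 array was left out, S100a6, Ccn5, Cyp4f14 and Cdkn2b were called only without AMC137, and Tmem178 only without AMC52 or AMC137. Cdkn2b was below the reference in both ovaries of 1 month, at -1.96 and -2.14, and at 0.41 in AMC52 and -0.49 in AMC137 at 6 months. With the signals as processed by the scanner software S100a6 (FDR 0.114), Ccn5 (FDR 0.119) and Cdkn2b (FDR 0.116) were not called. In the Cy3 channel alone Ccn5 (FDR 0.134) was not called.

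Among the 57 risen genes AMC52 was higher than AMC137 in 47, and the 6-month ovaries differed by more than 0.5 in 17 of them. The median ratio of the risen genes was -0.46 in AMC196, -0.38 in AMC244, 0.81 in AMC52 and 0.56 in AMC137. For the fallen genes the medians were 1.55, 1.47, 0.60 and 0.55 in the same order. The pair AMC52 and AMC137 was among the 6 pairs that set the shift for array version, so a small distance between these animals can come in part from the shift.

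**Figure D2:**
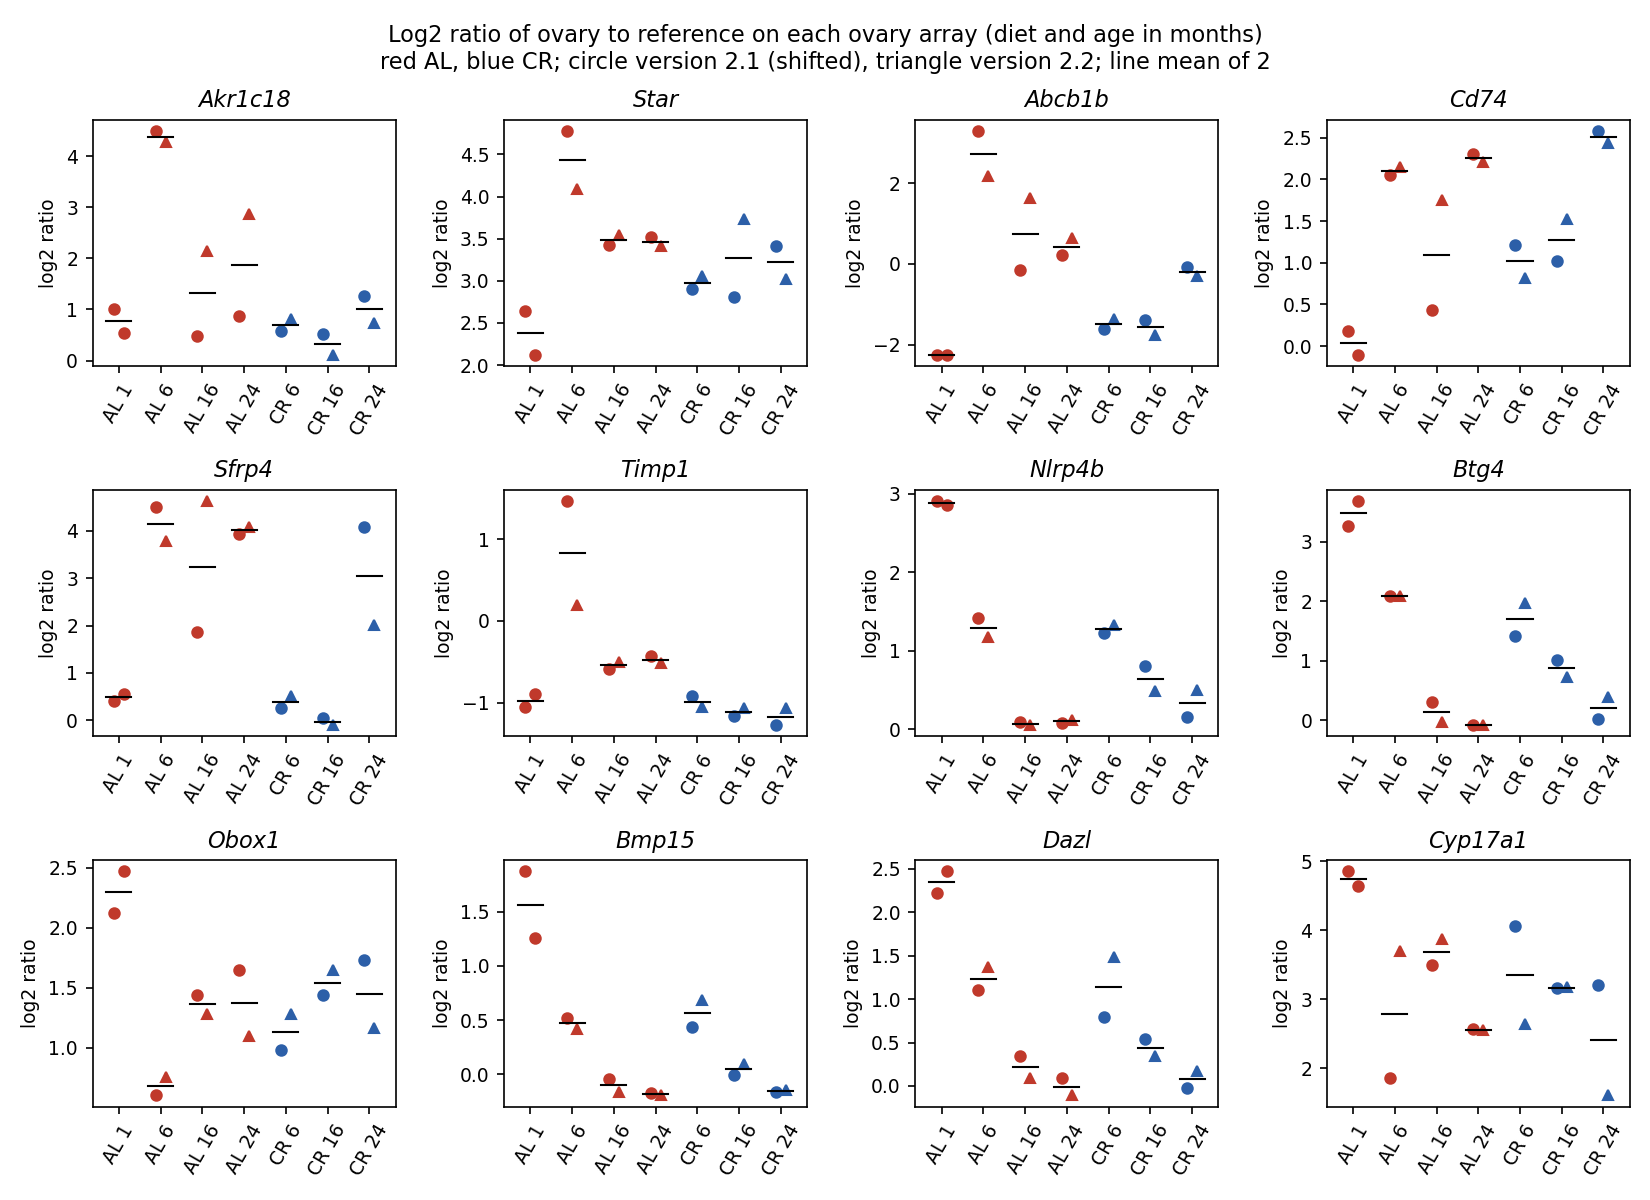
Each panel shows 1 of 12 genes, with the log2 ratio of ovary to reference on the y axis and the 7 ovary groups, by diet and age in months, on the x axis. Points are single ovaries, red for AL and blue for CR, circles for array version 2.1 after the shift and triangles for version 2.2, and lines are group means. Akr1c18 reaches 4.50 and 4.27 in the AL ovaries of 6 months, and Nlrp4b falls from 2.91 and 2.85 at 1 month to 1.42 and 1.17 at 6 months.

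The list of maternal effect genes and egg proteins, which the oocyte stores for the early embryo, had 29 measured members. Of these, 0 rose and 5 fell, against 0.161% and 0.283% of everything tested, and the median change was -0.97. Among the 27 members measured on all 4 arrays, 23 were lower in both ovaries of 6 months than in both of 1 month and 2 were higher. Over all genes measured on all 4 arrays these shares were 21.2% and 23.1%. Nlrp4b, an oocyte protein of the NLR family, had log2 ratios of 2.91 in AMC196, 2.85 in AMC244, 1.42 in AMC52 and 1.17 in AMC137. It changed by -1.59 ± 0.14 on the log2 scale, at an FDR of 0.00696. Obox1, an oocyte homeobox protein, was at 2.13 in AMC196, 2.47 in AMC244, 0.60 in AMC52 and 0.75 in AMC137. Its change was -1.62 ± 0.23 (FDR 0.0386), with no overlap of the ages. Btg4, an adaptor for the decay of maternal mRNA, was at 3.27 in AMC196, 3.68 in AMC244, 2.09 in AMC52 and 2.09 in AMC137. Btg4 changed by -1.38 ± 0.22 (FDR 0.051). The other fallen members were Omt2b with -1.14 ± 0.17 (FDR 0.0484) and the secreted oocyte protein Oosp1 with -0.71 ± 0.12 (FDR 0.0664). A second probe of Oosp1 gave -0.01.

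Of the 12 measured genes of the zona pellucida and of oocyte growth factors and regulators, 0 rose and 1 fell, with a median of -0.69. In 8 of the 11 measured on all arrays, both ovaries of 6 months were lower than both of 1 month, against 21.2% over all genes. The called member was Bmp15, the partner of Gdf9 in the signalling of the oocyte to granulosa cells. Bmp15 was at 1.87 in AMC196, 1.25 in AMC244, 0.52 in AMC52 and 0.42 in AMC137. It changed by -1.09 ± 0.17 (FDR 0.051), and the change was -0.78 without AMC196 and -1.40 without AMC244. Of 19 genes of meiosis and the germ line 1 fell and 0 rose, with a median of -0.09. The fallen gene was Dazl, an RNA-binding protein of germ cells, at 2.22 in AMC196, 2.47 in AMC244, 1.11 in AMC52 and 1.36 in AMC137. Dazl changed by -1.11 ± 0.21 (FDR 0.095) with no overlap of the ages. It was no longer called when any 1 of the 4 arrays was left out, and the change was -0.78 without AMC52.

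With the version term the medians were -0.98 for the maternal effect list and -0.70 for the zona list, and within version 2.1 they were -0.92 and -0.64. The changes of Nlrp4b, Obox1, Btg4, Bmp15 and Dazl were -1.57, -1.57, -1.41, -1.10 and -1.15 with the version term, under which only Nlrp4b of these 5 was called, and -1.46, -1.70, -1.39, -1.04 and -1.24 within version 2.1, where none of them was called. The signals as processed by the scanner software gave medians of -0.92 and -0.53, and the Cy3 channel alone -1.27 and -0.83. When 1 array was left out, Obox1, Btg4 and Oosp1 were called only without AMC137, Omt2b only without AMC52 or AMC137, and Bmp15 only without AMC244 or AMC137. With the processed signals Nlrp4b (FDR 0.264), Btg4 (FDR 0.454), Omt2b (FDR 0.119) and Dazl (FDR 0.254) were not called. In the Cy3 channel alone Obox1 (FDR 0.116), Btg4 (FDR 0.207), Omt2b (FDR 0.124), Oosp1 (FDR 0.524) and Dazl (FDR 0.134) were not.

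The other genes among the 12 largest falls of called genes with a name were of mixed kinds. Patl2, an RNA-binding protein that represses translation in oocytes, was at 2.74 in AMC196, 2.51 in AMC244, 1.46 in AMC52 and 1.02 in AMC137. Khdc1a, of a family of KH domain proteins made in oocytes, was at 2.30 in AMC196, 2.31 in AMC244, 1.09 in AMC52 and 0.80 in AMC137. Fbxw13, of a cluster of F-box proteins with WD repeats, was at 1.92 in AMC196, 1.70 in AMC244, 0.36 in AMC52 and 0.26 in AMC137. In each of these both ovaries of 6 months lay below both of 1 month. Patl2 changed by -1.38 ± 0.15 (FDR 0.0159) and Khdc1a by -1.35 ± 0.16 (FDR 0.0241), and Fbxw13 was 2.82-fold lower (FDR 0.0147). With the version term Patl2, Khdc1a and Fbxw13 changed by -1.37, -1.36 and -1.52, all of them still called, whereas none was within version 2.1 (FDR 0.119, 0.11 and 0.117). Patl2 (FDR 0.189) and Khdc1a (FDR 0.238) were not called with the processed signals, nor was Fbxw13 in the Cy3 channel alone (FDR 0.289). The largest fall of a called gene was that of LOC224752, a gene whose role is not known. It went from 2.33 and 2.58 at 1 month to 0.71 in AMC52 and 0.45 in AMC137, a change of -1.87 ± 0.15 (FDR 0.0065). Enox1, an oxidase of the plasma membrane, changed by -1.57 ± 0.28 (FDR 0.0792), and Cpsf4l, a relative of an mRNA 3' end processing factor, by -1.51 ± 0.24 (FDR 0.0518). For MGC91194, MGC117731 and LOC544755, whose roles are not known, the changes were -1.56, -1.51 and -1.46. Of these last 6, only LOC224752 was called with the processed signals and with the deposited values, and only LOC224752 and LOC544755 with the version term. Enox1 and Cpsf4l were called only without AMC137 when 1 array was left out.

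No gene of the granulosa cell and follicle growth list was called among 24 measured. Their median change was -0.40, with -0.46 under the version term and -0.45 within version 2.1, and 17 of 24 were lower in both ovaries of 6 months. Over all genes 21.2% were lower in this way. The members with the smallest p were Esr2, the oestrogen receptor beta of granulosa cells, and Ihh, a ligand that they send to theca cells. Esr2 was at 5.48 in AMC196, 5.41 in AMC244, 4.07 in AMC52 and 4.36 in AMC137. It had a change of -1.23 ± 0.23 (FDR 0.112) in a fit without the version 2.1 arrays of CR at 6 and 16 months, where it had no value. The change of Esr2 was -0.52 (FDR 0.725) with the signals as processed by the scanner software, -0.45 (FDR 0.743) with the deposited values and -0.79 without AMC52. Ihh had a change of -0.41 ± 0.09 (FDR 0.128) and of 0.19 in the Cy3 channel alone. Cyp19a1, the aromatase that makes oestradiol, had ratios of 2.87 in AMC196, 2.02 in AMC244, 0.89 in AMC52 and 1.90 in AMC137. Its change of -1.05 ± 0.53 was not called (FDR 0.477), and the ovaries within each age lay farther apart than AMC244 and AMC137, the nearest ovaries of different ages. It was -0.19 with the deposited values, -0.50 without AMC52 and -0.62 without AMC196.

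None of the 11 measured genes of theca and interstitial cells was called, with a median of -0.27. Cyp17a1, which makes androgens in theca cells, had the largest change in size after Sfrp4 among the genes named here that were not called. Its ratio was 4.85 in AMC196, 4.64 in AMC244, 1.86 in AMC52 and 3.70 in AMC137. AMC52 was far lower than the rest, and the change of -1.97 ± 0.67 (FDR 0.278) was -1.04 without AMC52 and -2.89 without AMC137, when it was called. A second probe gave -1.96. Aldh1a1 had a change of 0.46 ± 0.14 (FDR 0.237), and of 1.40 in the Cy3 channel alone.

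The pathway of TGF beta, activins and BMPs carries signals between oocyte, granulosa and theca cells. Of its 37 measured genes 2 fell, 0 rose and the median was -0.05. The fallen ones were Bmp15 and Id1, a target gene of BMP signals. Id1 was at 0.68 in AMC196, 0.81 in AMC244, 0.02 in AMC52 and 0.04 in AMC137 and changed by -0.71 ± 0.14 (FDR 0.0943), with the ages apart. The change of Id1 was -0.75 with the version term (FDR 0.22) and -0.73 within version 2.1 (FDR 0.135), and the gene was called in neither, nor when any 1 of the 4 arrays was left out.

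MHC class II molecules present antigen to T cells. Of 7 measured genes 2 rose and 0 fell, with a median of 0.33, 0.34 with the version term and 0.33 within version 2.1. Cd74, the invariant chain that guides class II molecules, had ratios of 0.18 in AMC196, -0.11 in AMC244, 2.06 in AMC52 and 2.15 in AMC137. It rose by 2.06 ± 0.36 (FDR 0.0728), and it was no longer called when any 1 of the 4 arrays was left out. H2-Eb1, a chain of a class II molecule, was at 0.18 in AMC196, -0.23 in AMC244, 1.29 in AMC52 and 1.27 in AMC137. Its rise was 1.30 ± 0.24 (FDR 0.0827), called only without AMC137 when 1 array was left out, and a second probe gave 1.76. With the version term the changes were 1.96 (FDR 0.202) and 1.24 (FDR 0.226), and within version 2.1 they were 2.02 (FDR 0.11) and 1.31 (FDR 0.137), so that neither was called.

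Macrophages are among the cells that present antigen by class II. None of 25 macrophage markers was called, the median change was 0.66, and 22 of 24 were higher in both ovaries of 6 months than in both of 1 month. Over all genes 23.1% were higher in this way. The median ratio of the list was -0.35 in AMC196, -0.28 in AMC244, -0.09 in AMC52 and -0.01 in AMC137. Its median change was 0.61 with the version term and 0.72 within version 2.1. Aif1 was at 0.38 in AMC196, -0.14 in AMC244, 1.23 in AMC52 and 1.34 in AMC137, a change of 1.16 ± 0.28 (FDR 0.142), and C1qb had a change of 0.91 ± 0.26 (FDR 0.2). The part of macrophages in the rise of Cd74 and H2-Eb1 was not tested. Of 21 complement genes, which share the 3 C1q genes with the macrophage list, none was called and the median was 0.27. Their changes ran from -1.86 to 1.30, and 5 of the 21 were below 0. Complement C2 had a change of 1.30 ± 0.26 (FDR 0.106) and Cd59a, an inhibitor of complement, of 0.82 ± 0.22 (FDR 0.18). Both were called in the Cy3 channel alone (FDR 0.0641 and 0.0993), and C2 also with the deposited values (FDR 0.0793).

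Genes of the cell cycle had a median change of -0.60, and none of 42 was called. In 39 of 42 both ovaries of 6 months were lower than both of 1 month, against 21.2% over all genes. The median was -0.65 with the version term, -0.60 within version 2.1, -0.68 with the signals as processed by the scanner software and -0.65 in the Cy3 channel alone. Cdc6, which licenses origins of replication, was at 0.15 in AMC196, -0.01 in AMC244, -0.57 in AMC52 and -1.17 in AMC137. Its change was -0.94 ± 0.27 (FDR 0.207), and that of Mcm5, a subunit of the replicative helicase, -0.89 ± 0.28 (FDR 0.25). Another probe of Mcm5 gave -0.33. Mki67, a marker of proliferating cells, had a change of 0.08 ± 0.17 (FDR 0.918), with 0.29 without AMC52, and its values at the ages overlapped.

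Of 40 genes of collagen and matrix 1 rose and 1 fell, with a median of 0.07 that turned negative without AMC52 or without AMC244. The risen gene was Timp1. The fallen one was Lamb1, a laminin chain of basement membranes, at 0.76 in AMC196, 0.93 in AMC244, -0.08 in AMC52 and 0.12 in AMC137. Lamb1 changed by -0.82 ± 0.14 (FDR 0.0792), with -0.81 for the version term (FDR 0.22) and -0.92 within version 2.1 (FDR 0.125), in neither of which it was called, and when 1 array was left out it was called only without AMC137. Col1a1, the main collagen of stroma, had a change of 0.25 ± 0.35 (FDR 0.863), its values overlapped, and the change was -0.10 without AMC52 and -0.14 without AMC244.

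No gene of the lists of electron transport, the cytosolic ribosome and heat shock was called. The 49 genes of electron transport had a median of 0.19, and 44 of them had a positive change, against 17989 of all 35305 tested. Ndufb4 had a change of 0.37 ± 0.08 (FDR 0.13) and Ndufa4 of 0.54 ± 0.13 (FDR 0.138). The median of the 49 genes of the cytosolic ribosome was -0.01, with -0.14 for the signals as processed by the scanner software and 0.04 for the Cy3 channel alone. Within it Rps27 had a change of 0.30 (FDR 0.239) and Rpl38 of 0.25 (FDR 0.332). The 16 heat shock genes had a median of -0.08, which was 0.03 in the Cy3 channel alone. Hspa4 had a change of -0.65 (FDR 0.298) and Dnajb1 of 0.34 (FDR 0.446).

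**Figure D3:**
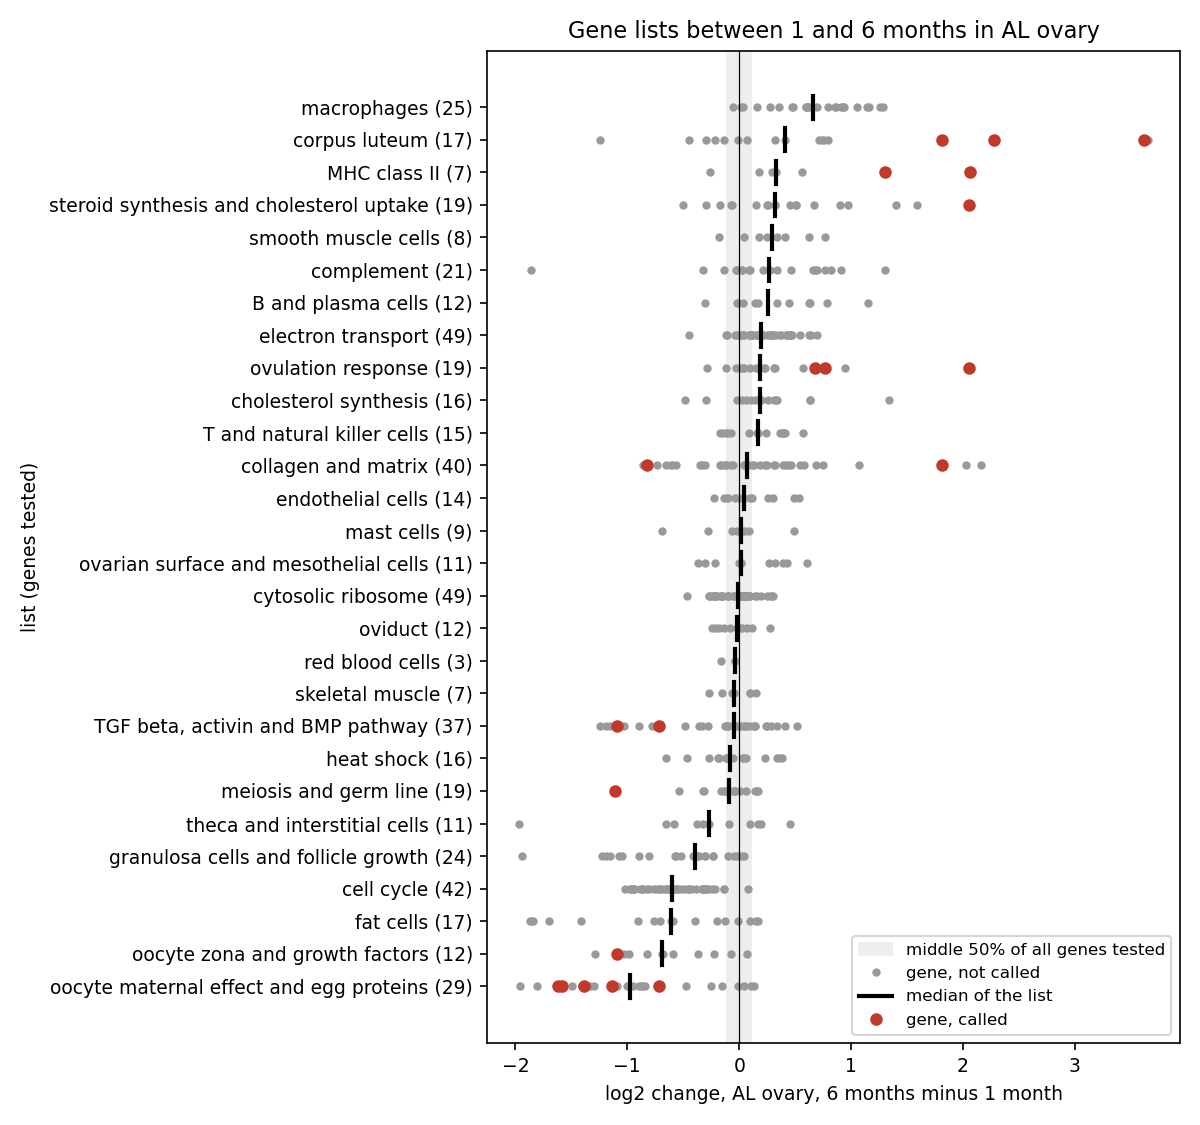
The x axis is the log2 change from 1 to 6 months in AL ovary and each row is a gene list with the number of genes tested. Grey points are genes that were not called, red points are called genes, black bars are medians, and the grey band spans the range from the lower to the upper quartile of all genes tested. Medians run from -0.97 for maternal effect genes to 0.66 for macrophages. Of the 28 medians, 10 changed sign in some alternative setting, all of them smaller than 0.3 in size.

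Markers of fat, oviduct, vessels and blood were followed as well, although fat beside the ovary was taken off at dissection. The 17 measured genes of fat cells had a median change of -0.61, and none was called. Their median ratio was 1.16 in AMC196, 1.28 in AMC244, 0.37 in AMC52 and 0.09 in AMC137. The 6-month ovaries were thus the lower ones, and AMC137 was the lowest. Fabp4 was at 4.87 in AMC196, 4.85 in AMC244, 3.75 in AMC52 and 2.28 in AMC137 and had a change of -1.84 ± 0.47 (FDR 0.159). This was -1.11 without AMC137 and -2.62 without AMC52, when Fabp4 was called (FDR 0.0546). Pck1 had a change of -1.70 ± 0.53 (FDR 0.24). Markers of smooth muscle had median ratios of 1.76 in AMC196, 1.35 in AMC244, 2.87 in AMC52 and 1.24 in AMC137, so that AMC52 stood above the other 3. Their median change was 0.29, and it was -0.44 without AMC52. Smtn had a change of 0.77 ± 0.49 (FDR 0.608) and Des of 0.62 ± 0.49 (FDR 0.707), and both overlapped between the ages. Without AMC52 the changes were -0.39 for Smtn and -0.31 for Des. The part of fat and smooth muscle cells in the calls was not tested.

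None of the other marker lists held a called gene. The median changes were 0.26 for 12 genes of B and plasma cells, 0.17 for 15 of T and natural killer cells, 0.02 for 9 of mast cells, 0.04 for 14 of endothelium, 0.01 for 11 of the ovarian surface and mesothelium, -0.02 for 12 of the oviduct, -0.05 for 7 of skeletal muscle and -0.04 for 3 of red blood cells. The median turned negative for mast cells with the signals as processed by the scanner software (-0.03) and in the Cy3 channel alone (-0.01), and for endothelium in the Cy3 channel alone (-0.02). For the oviduct it turned positive within version 2.1 (0.22), with the processed signals (0.01) and with the deposited values (0.01), and it was -0.64 without AMC52. For skeletal muscle it was 0.00 in the Cy3 channel alone. For the ovarian surface it was 0.41 within version 2.1 and -0.40 without AMC52. Among their members with the smallest p, Jchain of plasma cells had a change of 1.15 ± 0.67 (FDR 0.563), Blnk of B cells of 0.78 ± 0.47 (FDR 0.58), Gzma of killer cells of 0.39 ± 0.14 (FDR 0.301) and Ncr1 of 0.24 (FDR 0.549). With the processed signals the changes of Jchain, Gzma and Ncr1 were 1.80, 0.76 and 0.42. Robo4 of endothelium had a change of 0.54 ± 0.19 (FDR 0.289), and Plvap of 0.26 (FDR 0.39), and Robo4 gave 0.32 without AMC244. The mast cell protease Cma1 had a change of 0.49 ± 0.13 (FDR 0.176), with 0.31 without AMC52 and 0.66 without AMC137, when it was called, and Kit, which oocytes and theca cells also make, of -0.69 ± 0.45 (FDR 0.616). Rsph1 and Pax2 of the oviduct had changes of 0.27 (FDR 0.912) and 0.12 (FDR 0.566), where Rsph1 overlapped between the ages and was at -0.64 without AMC52, and Pax2 gave -0.08 in the Cy3 channel alone. Aldh1a2 and Lgals7 of the surface had changes of 0.60 (FDR 0.548) and -0.37 (FDR 0.63), with 0.30 for another probe of Lgals7. Without AMC52 they were 0.07 and -0.87, and without AMC137 1.09 and -0.20. For muscle and blood the values were 0.15 for Ckm (FDR 0.568), -0.16 for Tnnc2 (FDR 0.704) and -0.16 for Epb42 (FDR 0.534). Ckm gave 0.07 without AMC52, and without AMC196 Tnnc2 gave -0.07 and Epb42 -0.06.

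The levels of the called genes in the other ovary groups were taken as a description, since the genes were chosen on the AL ovaries of 1 and 6 months. The median ratio of the 57 risen genes was -0.38 at 1 month and 0.71 at 6 months, and on the AL diet it was 0.09 at 16 months and 0.11 at 24 months. On the CR diet it was -0.05 at 6 months, -0.15 at 16 months and 0.01 at 24 months. The AL ovaries of 6 months thus had the highest median of the 7 groups. For the 100 fallen genes the median was 1.54 at 1 month, 0.60 at 6 months, 0.12 at 16 months and 0.07 at 24 months on AL, and 0.75, 0.33 and 0.17 on CR at 6, 16 and 24 months. Here the order followed age on both diets. Differences between the diets were not tested.

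Single genes showed both kinds of course. The group mean of Akr1c18 was 1.31 at 16 months and 1.87 at 24 months on AL, and 0.69, 0.32 and 1.00 on CR at 6, 16 and 24 months. All of these lay below both AL ovaries of 6 months. Abcb1b had means of 0.75 and 0.43 at the later AL ages and of -1.48 in the CR ovaries of 6 months. The means of Sfrp4 were 3.24 and 4.01 at the later AL ages, 0.39 and -0.03 on CR at 6 and 16 months, and 3.05 on CR at 24 months. Cd74 had its highest AL mean at 24 months, 2.26, with 2.51 in the CR ovaries of that age. Nlrp4b went on to 0.07 at 16 months and 0.10 at 24 months on AL, and had 1.28, 0.65 and 0.33 on CR at 6, 16 and 24 months. Obox1 did not continue downward, with 1.36 and 1.37 at the later AL ages.

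To see whether the ovary differed from the testis over the same ages, the change from 1 to 6 months in AL ovary was set against that in AL testis in a fit over all 28 arrays. The difference was called for 205 of 35246 genes (0.582%), with a higher change in ovary for 78 and a lower one for 127. This difference shares the 4 ovary arrays with the comparison of the ages. Abcb1b had a change of 0.16 in testis, a difference of 4.82 ± 0.55 (FDR 0.000886). For Akr1c18 the testis change was -0.03 and the difference 3.64 ± 0.68 (FDR 0.03). Nlrp4b had a change of 0.03 in testis and differed by -1.62 ± 0.17 (FDR 0.000711). Of the 157 genes called in ovary, 102 were also called for the difference between the organs. Among the 34 ovary calls chosen by the naming rule, Star, Dazl, Cebpb, Ptger2, Id1 and Lamb1 were not called for it. Star had a change of 0.47 in testis (difference 1.59 ± 0.48, FDR 0.21). The count was 729 without the ovary AMC137, 64 and 75 without the testes AMC239 of 1 month and AMC133 of 6 months, and 344 without the testis AMC135 of 6 months.

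The number of calls in ovary depended on single animals. The 34 named genes counted here are the called genes that the naming rule chose, out of 114 called genes with a name. It was 9 without AMC196, 29 without AMC244, 186 without AMC52 (118 risen and 68 fallen) and 770 without AMC137. Of the 34 named genes that were called, 4 were called without AMC196, namely Csprs, LOC224752, Nlrp4b and S100a4, 9 without AMC244, 15 without AMC52 and 31 without AMC137. All 34 kept their sign in each of the 17 alternative settings, but they had been called on these same arrays. Settings that altered only the error, such as both ANOVA fits and the prior variance with a trend, could not alter a sign. Within version 2.1 the changes are the same as those without AMC137. The array version coincides with the day of image extraction in ovary, and both ovaries of 1 month were of version 2.1. With the version as a term of the fit 24 genes were called, 7 risen and 17 fallen, among them 9 of the 34: Abcb1b, Csprs, Fbxw13, Khdc1a, LOC224752, LOC544755, Nlrp4b, Patl2 and S100a4. Within version 2.1 there were 6, all of them risen, with Abcb1b and Ccn5 as the only ones of the 34, in a fit with 8 arrays in 7 groups. At an unadjusted p under 0.05 limma gave 4260 genes over all ovary arrays and 5750 within version 2.1. The ANOVA described for the study sets a floor on the error variance, and its degrees of freedom and the window of its moving average are not given in the sources used here. With 7 residual degrees of freedom it called 0 genes, with 1400 at an unadjusted p under 0.05, and with the variance taken as known, an alternative chosen after seeing the data, 416. A limma fit of only the 4 arrays compared also called 0, with 4461 at an unadjusted p under 0.05.

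The share of rises among the calls depended on the scaling. It was 36.3%, with 57 risen and 100 fallen. The signals as processed by the scanner software gave 58 risen and 41 fallen, or 58.6%, the deposited values 91 and 71, or 56.2%, and the Cy3 channel alone 101 and 91, or 52.6%. The naming rule chose 34 of the called genes. Of these, 17 were also called with the processed signals, 22 with the deposited values and 19 in the Cy3 channel alone. In the Cy3 channel the changes of Akr1c18 (5.67), Star (3.45) and Tmem178 (3.78) were larger, and that of Fbxw13 (-0.60) was smaller, and of these Star (FDR 0.124) and Fbxw13 (FDR 0.289) were not called there. The processed signals gave 1.62 for Tmem178. The larger number of falls than of rises did not hold in these scalings.

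Promoters of genes that moved together were searched for motifs of factors known from the ovary, with RefSeq sequence of the build GRCm38.p6. The window was the 250 bases before the start of the gene, for 27025 genes, 32 of the 57 risen and 51 of the 100 fallen. The motif of NR5A1, a regulator of steroid synthesis, was searched as AAGGTCA on both strands. It lay in 4.05% of all promoters, 6.25% of the risen and 3.92% of the fallen. The E-box, CANNTG, which reads alike on both strands and is bound by the oocyte factor FIGLA among many others, lay in 66.0%, 59.4% and 72.5%. For the motif of NOBOX, searched as TAATTG, the shares were 7.34%, 6.25% and 7.84%, and for that of CEBP factors, TTGCNNAA, 9.55%, 12.5% and 7.84%. A match is a string of letters and not a bound site. The promoters of the risen genes Abcb1b, at chr5:8797897-8798146 on the plus strand, and Akr1c18, at chr13:4150647-4150896 on the minus strand, and of the fallen oocyte genes Nlrp4b, at chr7:10687543-10687792 on the plus strand, Btg4, at chr9:51115751-51116000 on the plus strand, and Bmp15, at chrX:6320725-6320974 on the minus strand, are shown as examples of both directions. Nlrp4b had 2 listed starts, and the first was used. Each is written 5′ to 3′ with the E-boxes in capitals.
Abcb1b: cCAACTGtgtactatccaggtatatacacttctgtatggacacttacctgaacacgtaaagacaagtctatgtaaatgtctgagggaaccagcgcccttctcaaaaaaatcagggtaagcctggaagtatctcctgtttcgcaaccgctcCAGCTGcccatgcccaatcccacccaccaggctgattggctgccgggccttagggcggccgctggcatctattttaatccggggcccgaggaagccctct
Akr1c18: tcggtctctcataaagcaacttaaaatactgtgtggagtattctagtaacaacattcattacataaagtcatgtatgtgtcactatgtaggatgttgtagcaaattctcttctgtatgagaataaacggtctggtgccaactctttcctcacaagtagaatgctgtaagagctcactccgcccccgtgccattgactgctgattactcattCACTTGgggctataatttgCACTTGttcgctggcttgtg
Nlrp4b: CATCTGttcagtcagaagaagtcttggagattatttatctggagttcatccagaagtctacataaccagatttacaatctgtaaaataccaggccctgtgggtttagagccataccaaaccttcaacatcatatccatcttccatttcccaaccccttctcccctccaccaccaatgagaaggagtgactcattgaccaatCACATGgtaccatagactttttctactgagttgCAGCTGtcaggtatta
Btg4: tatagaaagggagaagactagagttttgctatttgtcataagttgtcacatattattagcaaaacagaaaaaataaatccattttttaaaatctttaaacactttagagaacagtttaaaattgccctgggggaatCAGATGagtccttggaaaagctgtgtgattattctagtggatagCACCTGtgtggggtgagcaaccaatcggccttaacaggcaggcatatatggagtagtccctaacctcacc
Bmp15: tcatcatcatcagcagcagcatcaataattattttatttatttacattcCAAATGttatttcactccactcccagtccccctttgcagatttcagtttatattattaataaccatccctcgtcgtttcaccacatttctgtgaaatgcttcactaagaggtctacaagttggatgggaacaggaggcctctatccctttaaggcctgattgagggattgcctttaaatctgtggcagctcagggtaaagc
The capitals mark 2 matches in Abcb1b, 2 in Akr1c18, 3 in Nlrp4b, 2 in Btg4 and 1 in Bmp15.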

How the data were processed

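RNA of single ovaries was hybridized by the authors to Agilent arrays of 60-base probes against a common reference, and the images were read with Agilent Feature Extraction. The intensity of each spot, with its local background, was deposited as read from the image and before any normalization, and the files also hold the intensities that this software processed. The deposited series tables hold log10 values. Set against the scanner values, each was the log10 ratio to the reference with a constant added for the probe, whose range over arrays was under 0.01 for 98.0% to 99.3% of probes. The constant matched the mean log10 reference signal of the version 2.2 arrays within 0.01 for 99.2% of probes, and in the ovary arrays of version 2.1 it held the median difference between the versions, likewise for 99.2%. None of scale, centring and direction is thus unknown. The column medians were 3.045 for AMC196, 3.039 for AMC244, 3.055 for AMC52 and 3.016 for AMC137, and 2.99 to 3.06 over the ovary arrays.

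Both channels were corrected with the normexp method of limma 3.58.1 in R 4.3.3 (offset 50), with tables and figures made in Python 3.11.15, and the ratio was normalized by loess within each array, with control and marked spots left out. Probes on both versions were matched by sequence (38270). The version coincides with the day of image extraction in ovary. Each probe of version 2.1 was shifted by the median difference to version 2.2 over the 6 groups with both. A fit with 7 group means gave the contrast with 7 residual degrees of freedom, and Benjamini-Hochberg adjustment was over all genes tested. The difference between ovary and testis was fitted with 14 group means over 28 arrays. The fits were tested on simulated data. The brightest probe stood for a gene and an unnamed probe for itself. Gene names were taken from tables supplied with the paper (5691 probes) and from accessions matched in RefSeq (14749), with the same gene for 97.5% of 2929 probes named by both. The tables of the paper list genes that changed with age or diet, so these are named more often. Named here are the 12 largest rises and falls of named genes, up to 6 called members of each of 28 gene lists or else the 2 with the smallest p, and 19 ovarian genes, apart from 1 that is not reported here. Rxfp1, Vegfa and Hsd17b7 are named besides, after their values were seen. The genes and lists were chosen with earlier results of these data known. In the ovary arrays the Cy3 signal was 1.33 to 1.74 times the background, 96.3% to 100% of probes were well above background and 0.0309% to 0.212% of spots were left out. No gene named by the rule was saturated or below background on an array compared. The number of arrays limits the precision. No group had enough arrays to test for outliers.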

Additional observations from a re-analysis of the deposited data

Results flagged for a closer look

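The change from 1 to 6 months differed between ovary and testis for 205 genes in the test of the difference itself, at an FDR of at most 0.1 and at least 1.5-fold. Of the genes chosen by the naming rule, 29 were among them. Their differences, ovary minus testis in the log2 change, were positive for Abcb1b (4.82), Akr1c18 (3.64), Ccn5 (2.97), Tmem178 (2.59), S100a6 (2.51), Cyp4f14 (2.42), S100a4 (2.40), Onecut2 (2.24), Cdkn2b (1.93), Csprs (1.86), Cd74 (1.81), Timp1 (1.65) and H2-Eb1 (1.18). They were negative for LOC224752 (-1.87), Obox1 (-1.66), Nlrp4b (-1.62), MGC91194 (-1.59), MGC117731 (-1.54), Enox1 (-1.51), Fbxw13 (-1.45), LOC544755 (-1.40), Khdc1a (-1.38), Cpsf4l (-1.28), Esr2 (-1.27), Patl2 (-1.27), Bmp15 (-1.15), Omt2b (-1.13), Btg4 (-1.12) and Oosp1 (-0.78). Esr2 was called for this difference (FDR 0.035) but not for the change in ovary (FDR 0.112), which was -0.52 with the signals as processed by the scanner software. What lies behind these differences was not tested.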

How the results depend on the processing

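The count of 157 genes called between 1 and 6 months (57 risen, 100 fallen) and that of 205 for the difference between ovary and testis moved by more than 1.5 times in several settings. With the array version as a term they were 24 (7 and 17) and 106, without adjustment for version 50 (9 and 41) and 80, and with only the ovary arrays of version 2.1 they were 6 (6 and 0) and 2094. That last ovary fit leaves 1 residual degree of freedom, and limma gave 5750 genes at an unadjusted p under 0.05. The signals as processed by the scanner software gave 99 (58 and 41) and 106. The deposited values gave 91 risen genes, the Cy3 channel alone 101 and a prior variance with a trend over the mean log2 ratio 99. Under the ANOVA described for the study, run with 7 residual degrees of freedom since the sources used here give neither these nor the window of its moving average, the counts were 0 (0 and 0, with 1400 at an unadjusted p under 0.05) and 14. With that variance taken as known, an alternative chosen after seeing the data, 416 genes were called in ovary (183 and 233). With only the arrays compared they were 0 (0 and 0, with 4461 at an unadjusted p under 0.05) and 117. Leaving out 1 array at a time gave 9 to 770 called, 2 to 480 risen, 7 to 290 fallen and 64 to 729 for the organ difference, where the lone array left in a group was assumed to vary like the other groups. The cause of these shifts was not tested. The counts not given here were within 1.5 times.

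All 34 called genes named in the text kept their direction in every setting run, and none was called in all of them, since the ANOVA with 7 residual degrees of freedom and the fit of only the 4 arrays called 0. Some of the settings altered only the error, so that no direction could turn there. Of 53 genes chosen by the naming rule that were not called, 12 were called in some setting and 10 changed sign in some. The 9 lists with a median of at least 0.3 in size kept their sign in all settings. No paired analysis was possible because the labels give no replicate numbers. The Cy3 signal of 1.33 to 1.74 times the background limits the folds of dim genes.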
